A study of Mus musculus with 16 samples.

Results

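Tuft cells are rare chemosensory cells of the gut epithelium. They read the contents of the lumen through a taste-like pathway in which receptors act on phospholipase C and the cation channel Trpm5, and they release the cytokine Il25 together with prostaglandins and leukotrienes made from arachidonic acid. Their identity depends on the transcription factor Pou2f3, and in mouse colon they are commonly recognised by the kinase Dclk1. The 10 genes followed here, taken from 54123 genes, were chosen as known tuft cell genes, with earlier results of these data known. They comprise the cytoskeletal gene Avil, the signalling genes Dclk1, Trpm5, Plcg2 and Sh2d6, the regulators Pou2f3 and Gfi1b, and the mediator genes Il25, Alox5 and Ptgs1.

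The 16 RNA-seq libraries came from organoids grown from the first 1 cm (proximal) or the last 1 cm (distal) of the colon of 8-week-old female mice. All groups carried a heterozygous Cre-inducible BrafV600E allele and a heterozygous tdTomato reporter, with no Cre given. Cas9 and either a control guide (Scramble-sgRNA) or a guide against the intestinal homeobox gene Cdx2 (Cdx2-sgRNA) were delivered by lentivirus, and cultures were kept for 3 days in medium with (WENR-plus) or without (WENR-minus) Wnt3a, EGF, Noggin and R-spondin-1. Each of the 8 groups, made by crossing region, guide and medium, held 2 libraries from independent mice. Each Cdx2-sgRNA line was grown from a single cell with frameshifts in both alleles, so it was 1 clone, and no such step was described for the Scramble-sgRNA cultures. A clone of its own and the loss of Cdx2 therefore cannot be told apart in a single line.

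Libraries held 12465194 to 18922143 counts. Cdx2 transcript, the targeted gene, was at 127 to 203 CPM (counts scaled to a common library size after TMM normalization) in the 4 proximal Scramble-sgRNA libraries and at 29.9 to 73.9 CPM in the 4 proximal Cdx2-sgRNA libraries. In the distal organoids the ranges were 67.9 to 112 CPM with Scramble-sgRNA and 50.2 to 126 CPM with Cdx2-sgRNA, and they overlapped. A frameshift need not lower a transcript, so the distal level does not check those labels. Markers of the colon epithelium were present in all groups, at levels that differed. The 10 stem and crypt bottom genes summed to 1192 to 1713 TPM (a level corrected for transcript length and depth) in the 4 proximal Cdx2-sgRNA libraries and to 618 to 1335 TPM in the other 12, a sum led by Prom1. Its members did not move together: Smoc2 had 1 to 7 reads in the former and 11 to 852 in the proximal Scramble-sgRNA libraries, while Cd44 was called higher in both proximal media. The 10 colonocyte genes summed to 142 to 1336 TPM and 488 to 17100 TPM, with Krt20 leading the reads in the proximal Cdx2-sgRNA libraries. The 8 goblet cell genes summed to 2396 to 14820 TPM in those 12 libraries and the 12 enteroendocrine genes to 65.2 to 548 TPM. In the 4 proximal Cdx2-sgRNA libraries the sums were 48.3 to 145 TPM and 1.1 to 2.60 TPM. In bulk RNA, fewer cells of a type and less RNA per cell cannot be told apart.

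Tuft cell genes were close to absent from most of these organoids. In the 12 libraries outside the proximal Cdx2-sgRNA groups the 10 genes together summed to between 0.281 and 2.95 TPM, and between 0 and 3 of the 10 had more than 3 reads. In the 4 proximal Cdx2-sgRNA libraries the sum was 24.0 to 98.4 TPM, and between 4 and 6 genes had more than 3 reads. Most of that level was a single gene, Ptgs1, and the 9 other genes summed to 6.13 to 8.0 TPM there.

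**Figure D1:**
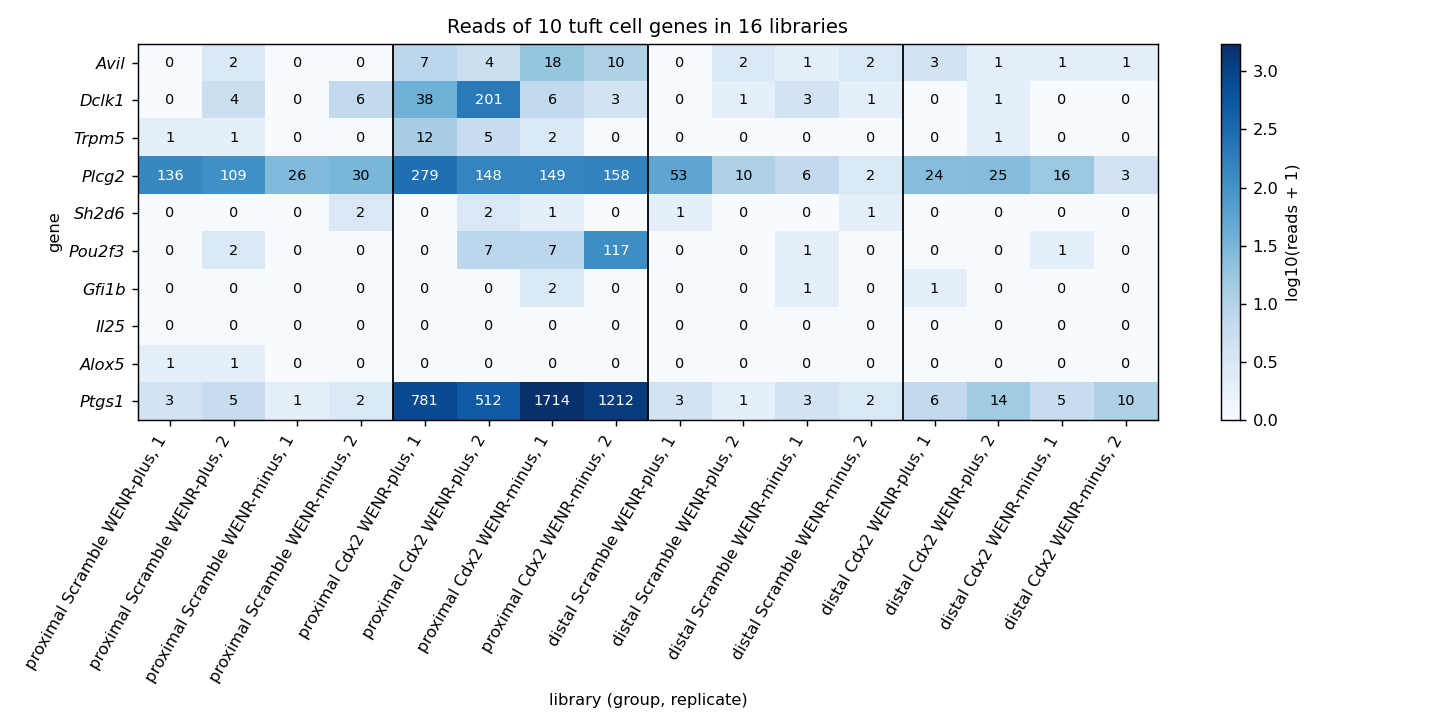
Reads of the 10 tuft cell genes (rows) in each of 16 libraries (columns, labelled by region, guide, medium and replicate). Colour gives log10(reads + 1) and the number in each cell is the read count; Il25 is at 0 throughout, and Ptgs1 is at 512 to 1714 in the 4 proximal Cdx2-sgRNA libraries and at 1 to 14 in the other 12.

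Il25, Gfi1b, Sh2d6 and Alox5 gave the fewest reads. Il25, the cytokine by which tuft cells alert type 2 immunity, had 0 reads in all 16 libraries, and a count of 0 allows up to 3 reads in each. Gfi1b, a zinc-finger repressor, had 4 reads over all libraries, with at most 2 in any. Sh2d6, an SH2-domain protein used as a tuft marker, had 7 reads over 5 libraries. Alox5, the 5-lipoxygenase that starts leukotriene synthesis, had 1 read in each proximal Scramble-sgRNA WENR-plus library and 0 in the other 14. At these levels no difference between groups was detectable in any of the 4 genes.

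Trpm5, the channel that depolarises the stimulated tuft cell, had 12 and 5 reads in the 2 proximal Cdx2-sgRNA WENR-plus libraries. It had 2 and 0 reads in the corresponding WENR-minus libraries, 1 and 1 in proximal Scramble-sgRNA WENR-plus, a single read in distal Cdx2-sgRNA WENR-plus replicate 2, and 0 in the 9 remaining libraries. The 2 WENR-plus libraries with Cdx2-sgRNA were thus above all others. None of the 22 Trpm5 reads was assigned to its 3 protein-coding transcripts: 13 went to transcripts annotated as retained intron and 9 to 1 annotated for nonsense-mediated decay. Tssc4 lies on the opposite strand within the Trpm5 locus.

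Avil encodes advillin, an actin-bundling protein of the tuft cell apex. It had 18 and 10 reads in proximal Cdx2-sgRNA WENR-minus and 7 and 4 in proximal Cdx2-sgRNA WENR-plus. The 12 other libraries had 0 to 3 reads, below each of those 4. Against proximal Scramble-sgRNA WENR-minus, where both libraries had 0, the 28 reads were at least 5.09-fold higher when set against a floor of 3 reads per library, or 6 over the group. All 52 Avil reads were on protein-coding transcripts.

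Pou2f3, the octamer-binding factor on which tuft cells depend, had 117 reads in proximal Cdx2-sgRNA WENR-minus replicate 2 and 7 in replicate 1 of the same group. In proximal Cdx2-sgRNA WENR-plus it had 0 and 7 reads, in proximal Scramble-sgRNA WENR-plus 0 and 2, and the other 10 libraries had 0 or 1. Of the 117 reads, 98.5 were assigned to a retained-intron transcript that spans chr9:43124242-43143204 on the minus strand, and 18.5 to a protein-coding transcript. Over all libraries the retained-intron transcript held 84.8% of Pou2f3 reads. The level of Pou2f3 therefore rested on 1 library, and mostly on RNA that is not annotated as coding.

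These 7 genes failed the filter on low counts, and 3 were tested: Ptgs1, Plcg2 and Dclk1. Of these, Ptgs1 and Dclk1 exceeded 14 reads only in proximal Cdx2-sgRNA libraries. They were thus kept by the group in which they were high, so their test values below are a description. The counts of called genes given below are a description of 3 genes. A gene was called when the adjusted p was below 0.05 and the absolute log2 fold change above 1 in edgeR's quasi-likelihood test with Benjamini-Hochberg adjustment over 15289 genes. The medium, guide and region comparisons reuse the same 16 libraries.

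Ptgs1 encodes cyclooxygenase 1, which converts arachidonic acid to the precursor of all prostaglandins and is a strong marker of tuft cells among epithelial cells. The gene lies at chr2:36230426-36252272 on the plus strand (GRCm38). In the proximal organoids with Cdx2-sgRNA it had 1714 and 1212 reads without the niche factors (WENR-minus) and 781 and 512 with them (WENR-plus). The proximal Scramble-sgRNA libraries had 1 and 2 reads without the factors and 3 and 5 with them. Distal Scramble-sgRNA libraries had 3 and 2 reads without the factors and 3 and 1 with them, whereas distal Cdx2-sgRNA libraries had 5 and 10 without and 6 and 14 with them. The 4 proximal Cdx2-sgRNA libraries, from 2 clones, stood apart from the other 12 with no overlap, and in CPM the 4 distal Cdx2-sgRNA libraries were next in order, while in reads the lowest of them tied with a proximal Scramble-sgRNA library at 5.

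In group means the order of Ptgs1 was 95.7 ± 44.6 CPM (SD, n = 2 throughout) in proximal Cdx2-sgRNA WENR-minus, 36.2 ± 12.9 in proximal Cdx2-sgRNA WENR-plus, 0.630 ± 0.292 in distal Cdx2-sgRNA WENR-minus and 0.542 ± 0.280 in distal Cdx2-sgRNA WENR-plus. The Scramble-sgRNA groups followed at 0.220 ± 0.108 (proximal WENR-plus), 0.187 ± 0.0618 (distal WENR-minus), 0.102 ± 0.0682 (distal WENR-plus) and 0.0831 ± 0.0299 CPM (proximal WENR-minus). The 2 distal Cdx2-sgRNA groups did not differ beyond their spread, nor did neighbouring Scramble-sgRNA groups.

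The assignment of Ptgs1 reads to transcripts, which is an estimate, also differed between libraries. Its only protein-coding transcript, 2867 bases long, received 1654 and 1130 reads in the proximal Cdx2-sgRNA libraries grown without niche factors, and 734.6 and 446 in those grown with them. It received 0 reads in all 8 Scramble-sgRNA libraries, where the few Ptgs1 reads were assigned to processed or retained-intron transcripts. With so few reads outside the proximal Cdx2-sgRNA groups, the split between overlapping transcripts there is uncertain. Among distal Cdx2-sgRNA libraries the protein-coding transcript received 5 and 0 reads without the factors, and 0 and 14 reads with them. Over all libraries it held 93.2% of the reads of the gene.

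RefSeq promoter entries (GRCm38.p6) were matched for 8 of the 10 genes, with 2 entries for Dclk1. The 250 bases before the start are shown for the 3 tested genes. Capitals mark a match to the motif CNATAAA, a pattern bound by Cdx2, searched on both strands. For Dclk1 the upstream start is shown, to whose transcripts most of its reads were assigned.
Ptgs1, chr2:36230176-36230425, plus strand: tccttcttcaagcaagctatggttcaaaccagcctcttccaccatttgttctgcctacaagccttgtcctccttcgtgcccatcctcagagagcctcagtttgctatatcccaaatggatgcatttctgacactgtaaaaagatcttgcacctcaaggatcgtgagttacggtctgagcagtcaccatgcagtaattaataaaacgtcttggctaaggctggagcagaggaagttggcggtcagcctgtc
Dclk1, chr3:55242114-55242363, plus strand: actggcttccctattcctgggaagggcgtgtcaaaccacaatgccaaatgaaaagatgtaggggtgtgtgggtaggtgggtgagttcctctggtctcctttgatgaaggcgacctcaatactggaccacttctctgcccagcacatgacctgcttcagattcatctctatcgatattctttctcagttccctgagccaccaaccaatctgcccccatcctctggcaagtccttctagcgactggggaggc
Plcg2, chr8:117498025-117498274, plus strand: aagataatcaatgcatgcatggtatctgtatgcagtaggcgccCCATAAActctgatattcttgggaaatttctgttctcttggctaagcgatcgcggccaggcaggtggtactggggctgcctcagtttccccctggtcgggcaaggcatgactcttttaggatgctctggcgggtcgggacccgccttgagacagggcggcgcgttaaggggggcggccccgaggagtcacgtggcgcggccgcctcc
The window of Plcg2 held CNATAAA once, beginning 207 bases before the start, and the windows of Ptgs1 and Dclk1 held none. Of the 9 entries 2 held it, those of Plcg2 and Alox5, beside 9.81% of 32851 promoter windows of the same length. The octamer ATGCAAAT, the sequence read by Pou2f3 and its relatives, was in none of the 9 and in 1.60% of all windows, also on both strands. A match is a description of the letters, and its absence says only that they are not in this window.

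The comparison of Cdx2-sgRNA with Scramble-sgRNA asked what changed when Cdx2 was disrupted. In proximal WENR-minus organoids 2 of the 3 tested genes were called, both higher, beside 21.2% of all genes. Ptgs1 was 1064-fold higher by summed reads (2926 against 3, 95% counting interval 364 to 5163), a fitted log2 fold change of 10.02 (SE 0.64, adjusted p = 1.31e-06). Plcg2 rose by 2.61 on the log2 scale (SE 0.72, adjusted p = 0.0179). In proximal WENR-plus organoids 2 were called, beside 15.9% of all genes: Ptgs1 at 7.36 (SE 0.56, adjusted p = 8.74e-06) and Dclk1 at 5.77 (SE 1.45, adjusted p = 0.0169). In these edgeR fits Ptgs1 was higher in 2 of 2 libraries in each medium and kept its call in every alternative that could test it.

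In the distal organoids no member was called in either medium. Beside these counts stand 5.25% of genes called in WENR-minus and 0.262% in WENR-plus, and at an unadjusted p under 0.05 the edgeR test passed Ptgs1 in WENR-plus alone. The fitted log2 fold change of Ptgs1 was 1.72 without the niche factors (SE 0.79, adjusted p = 0.194). With the factors it was 2.32 (SE 0.78, adjusted p = 0.485). DESeq2 called none either, while without the filter on low counts Ptgs1 in WENR-plus was called (adjusted p = 0.0187). By summed reads Ptgs1 was 3.40-fold higher in WENR-minus (15 against 5, counting interval 1.18 to 12) and 5.31-fold higher in WENR-plus (20 against 4, 1.78 to 21.4). In both media the distal Cdx2-sgRNA and Scramble-sgRNA libraries did not overlap.

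In the edgeR fit the size of the Ptgs1 response differed by region. Ptgs1 was kept for testing by the proximal Cdx2-sgRNA libraries, in which it was high, so these values are a description. The Cdx2-sgRNA effect was larger in proximal than in distal organoids by 8.29 on the log2 scale without the niche factors (SE 1.39, edgeR adjusted p = 0.00269). The excess was 5.04 with the factors present (SE 1.30, adjusted p = 0.0452). Of the 3 tested genes Ptgs1 alone was called, beside 14.3% of all genes in WENR-minus and 4.98% in WENR-plus. With protein-coding transcripts only, neither difference was called (adjusted p = 0.9999 in each medium), since Ptgs1 had 0 such reads in every Scramble-sgRNA library and the fitted error was unusably wide. The WENR-plus call was lost when any of 6 of its 8 libraries was left out, with differences of 4.21 to 5.59 and adjusted p of 0.0566 to 0.356. The corresponding differences were 1.21 (SE 1.22) and 1.14 (SE 0.98) for Plcg2 and 5.20 (SE 3.30) and 5.71 (SE 3.71) for Dclk1, none of them called.

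**Figure D2:**
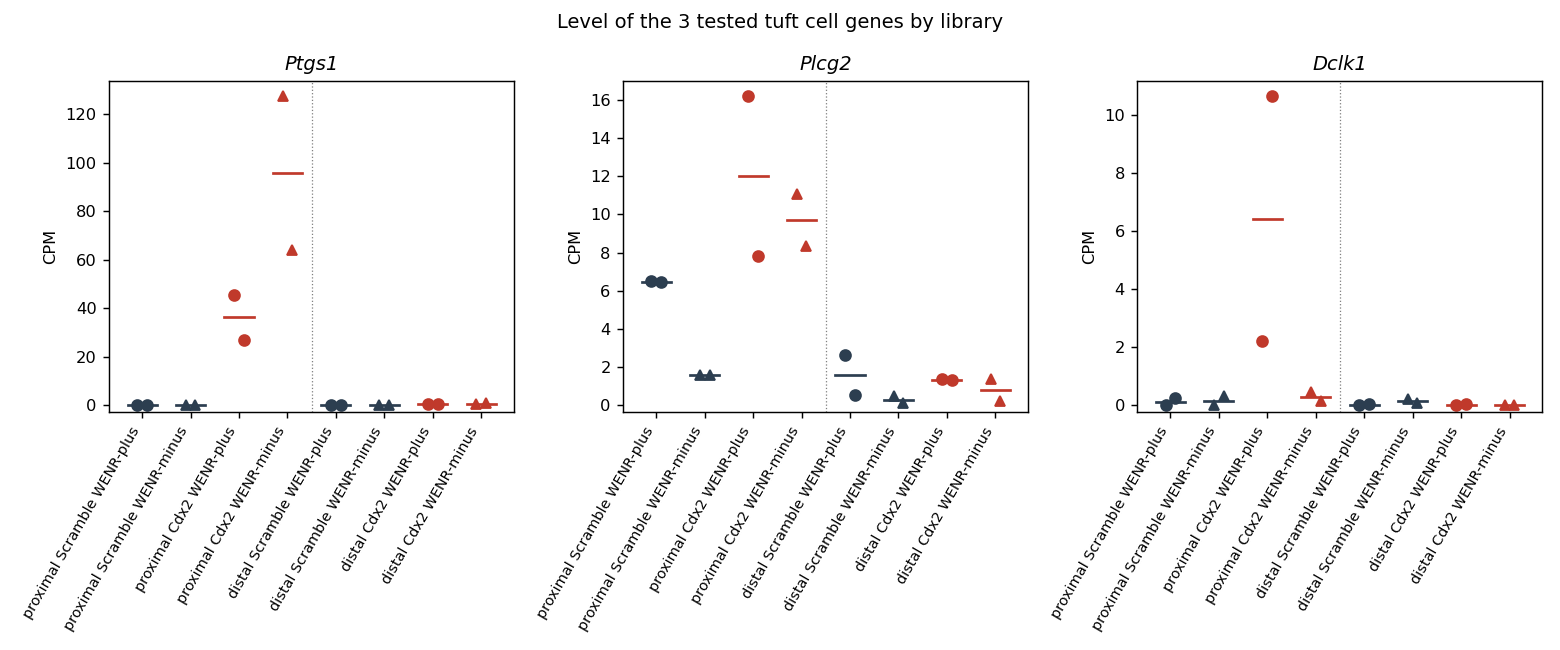
CPM of Ptgs1, Plcg2 and Dclk1 in each of 16 libraries, with the 8 groups along the horizontal axis; circles are WENR-plus, triangles WENR-minus, red Cdx2-sgRNA and dark Scramble-sgRNA, and the short line is the mean of 2. Ptgs1 exceeds 27 CPM in the 4 proximal Cdx2-sgRNA libraries and stays below 1 CPM elsewhere, whereas Plcg2 is present in every library and Dclk1 is led by a single library.

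Plcg2 encodes a phospholipase C that relays signals from immune-type receptors and is found in tuft cells and in blood cells. It was the only member other than Ptgs1 with a read in every library. In proximal organoids it had 149 and 158 reads with Cdx2-sgRNA in WENR-minus, 279 and 148 with Cdx2-sgRNA in WENR-plus, 26 and 30 with Scramble-sgRNA in WENR-minus and 136 and 109 with Scramble-sgRNA in WENR-plus. Distal Cdx2-sgRNA libraries had 16 and 3 reads without the niche factors and 24 and 25 with them. Distal Scramble-sgRNA libraries had 6 and 2 reads without the factors and 53 and 10 with them. In CPM each proximal group lay above the distal group of the same guide and medium, with no overlap. In WENR-plus proximal organoids Cdx2-sgRNA and Scramble-sgRNA libraries were 7.83 to 16.2 and 6.45 to 6.50 CPM, a log2 difference of 0.89 (SE 0.66) that edgeR did not call (adjusted p = 0.358).

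The proximal WENR-minus call of Plcg2 was held by 4 libraries with 9.71 ± 1.91 CPM for Cdx2-sgRNA and 1.59 ± 0.0339 CPM for Scramble-sgRNA. The edgeR call was lost without either Scramble-sgRNA library (adjusted p = 0.0868 and 0.0858) and without Cdx2-sgRNA replicate 1 (adjusted p = 0.0541), with log2 fold changes between 2.42 and 2.65. All 1174 reads of Plcg2 were on its 1 annotated transcript.

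Dclk1, the doublecortin-like kinase, had 38 and 201 reads in proximal Cdx2-sgRNA WENR-plus. It had 6 and 3 reads in proximal Cdx2-sgRNA WENR-minus, 0 and 6 in proximal Scramble-sgRNA WENR-minus and 0 and 4 in proximal Scramble-sgRNA WENR-plus. The 8 distal libraries had 0 to 3 reads. Replicate 2 of proximal Cdx2-sgRNA WENR-plus alone held 201 of the 264 reads, and in CPM the pair stood at 2.20 and 10.6. Without that library the edgeR log2 fold change against Scramble-sgRNA was 4.22 (adjusted p = 0.112), without Scramble-sgRNA replicate 1 it was 4.77 (adjusted p = 0.102), and with length-scaled counts it was 5.46 (adjusted p = 0.0532), so the call rested on single libraries.

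Reads of Dclk1 in proximal Cdx2-sgRNA WENR-plus were also assigned to transcripts with another start. This split between overlapping transcripts is an estimate. Transcripts that begin upstream, between 55242364 and 55247279 on chromosome 3, received 24.6 and 149 reads in the 2 proximal Cdx2-sgRNA WENR-plus libraries. They received 2 and 1 reads in the corresponding WENR-minus libraries and 0 in the other 12. Transcripts that begin downstream, between 55354134 and 55527879, received 13.5 and 52.1 reads in the WENR-plus pair and 0 to 6 in the other 14 libraries. The few Dclk1 reads of the Scramble-sgRNA and distal organoids were therefore all assigned to the downstream transcripts. Reads this few do not settle whether the start differed.

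**Figure D3:**
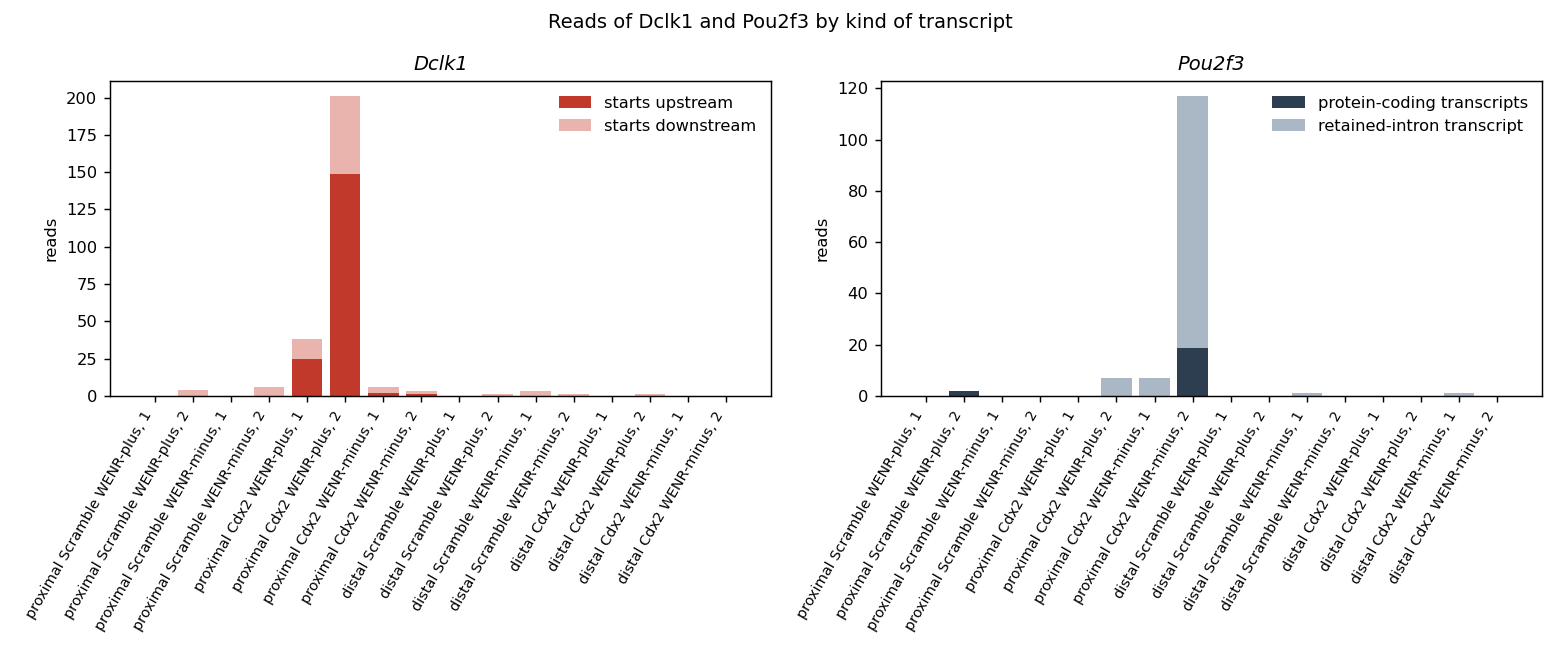
Reads of Dclk1 (left) and Pou2f3 (right) in each of 16 libraries, stacked by kind of transcript: for Dclk1 those that begin upstream or downstream in the gene, for Pou2f3 protein-coding or retained-intron. Upstream Dclk1 transcripts reach 149 reads in 1 proximal Cdx2-sgRNA WENR-plus library, and 98.5 of the 117 Pou2f3 reads in proximal Cdx2-sgRNA WENR-minus replicate 2 are on the retained-intron transcript.

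The medium comparison asked what 3 days without the niche factors did. In proximal Cdx2-sgRNA organoids Ptgs1 rose by 1.40 on the log2 scale in WENR-minus (SE 0.38, edgeR adjusted p = 0.0322), the 1 member called of 3, beside 6.40% of all genes. Its 2 WENR-minus libraries, at 127 and 64.1 CPM, were above the WENR-plus pair at 45.3 and 27.1. The call was lost without WENR-minus replicate 1 (0.86, adjusted p = 0.244), without WENR-plus replicate 2 (1.08, adjusted p = 0.214), with length-scaled counts (adjusted p = 0.0557), with protein-coding transcripts only (1.37), and with only the 4 libraries (adjusted p = 0.174). In that group Dclk1 stood at 0.302 ± 0.203 CPM in WENR-minus and 6.42 ± 5.96 in WENR-plus, a log2 difference of -4.43 (SE 1.33, adjusted p = 0.0525) that was not called. It was called once the 2 media of a culture were blocked (-4.16, adjusted p = 0.0199), and by DESeq2, without the filter on low counts, with protein-coding transcripts only and without WENR-plus replicate 1. Without WENR-plus replicate 2, which held 201 of the 239 WENR-plus reads, it was -2.88 (adjusted p = 0.325), and with length-scaled counts -2.78 (adjusted p = 0.264).

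Plcg2 was lower in WENR-minus in both kinds of Scramble-sgRNA organoid. In distal Scramble-sgRNA it fell by 2.39 on the log2 scale (SE 0.87, edgeR adjusted p = 0.0466), the 1 member called there, beside 26.4% of all genes. That call was lost without WENR-plus replicate 1, which held 53 of the 63 WENR-plus reads (-0.78, adjusted p = 0.544), without either WENR-minus library (adjusted p = 0.0744 and 0.235), and under RLE size factors (adjusted p = 0.0513). In proximal Scramble-sgRNA no member was called, beside 17.0% of all genes, but the 4 Plcg2 libraries were at 1.61, 1.56, 6.50 and 6.45 CPM, a log2 difference of -2.02 (SE 0.71, adjusted p = 0.0513). With the replicate number as a block Plcg2 was called there (-2.03, adjusted p = 0.0185), as it was with the culture blocked (-2.02, adjusted p = 0.00240) and by DESeq2 (adjusted p = 0.0210).

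In distal Cdx2-sgRNA organoids no member was called between media, beside 33.1% of all genes, and none of the 3 had an unadjusted p under 0.05. Plcg2 differed there by -0.75 (SE 0.79) and Ptgs1 by 0.20 (SE 0.62) on the log2 scale, and DESeq2 called neither. Whether the response to the medium depended on the guide was tested as a difference of log2 changes. In proximal organoids no member was called, beside 3.60% of all genes, with differences of 1.72 (SE 0.96) for Plcg2, 2.66 (SE 1.04) for Ptgs1 and, in the opposite direction, -4.96 (SE 2.08, edgeR adjusted p = 0.201) for Dclk1. With each culture blocked across its 2 media Plcg2 and Ptgs1 were called, at 1.79 (adjusted p = 0.0411) and 2.70 (adjusted p = 0.0212), and Dclk1 was not (adjusted p = 0.153). Dclk1 was called without the filter on low counts (-5.03, adjusted p = 0.00542), and its difference went from -8.94 without Scramble-sgRNA WENR-plus replicate 2 to -0.49 without Scramble-sgRNA WENR-minus replicate 2. In distal organoids no member and 0.00% of all genes were called, while 1457 genes had an unadjusted p under 0.05. Between the regions with Scramble-sgRNA no member was called, beside 0.0719% of all genes.

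**Figure D4:**
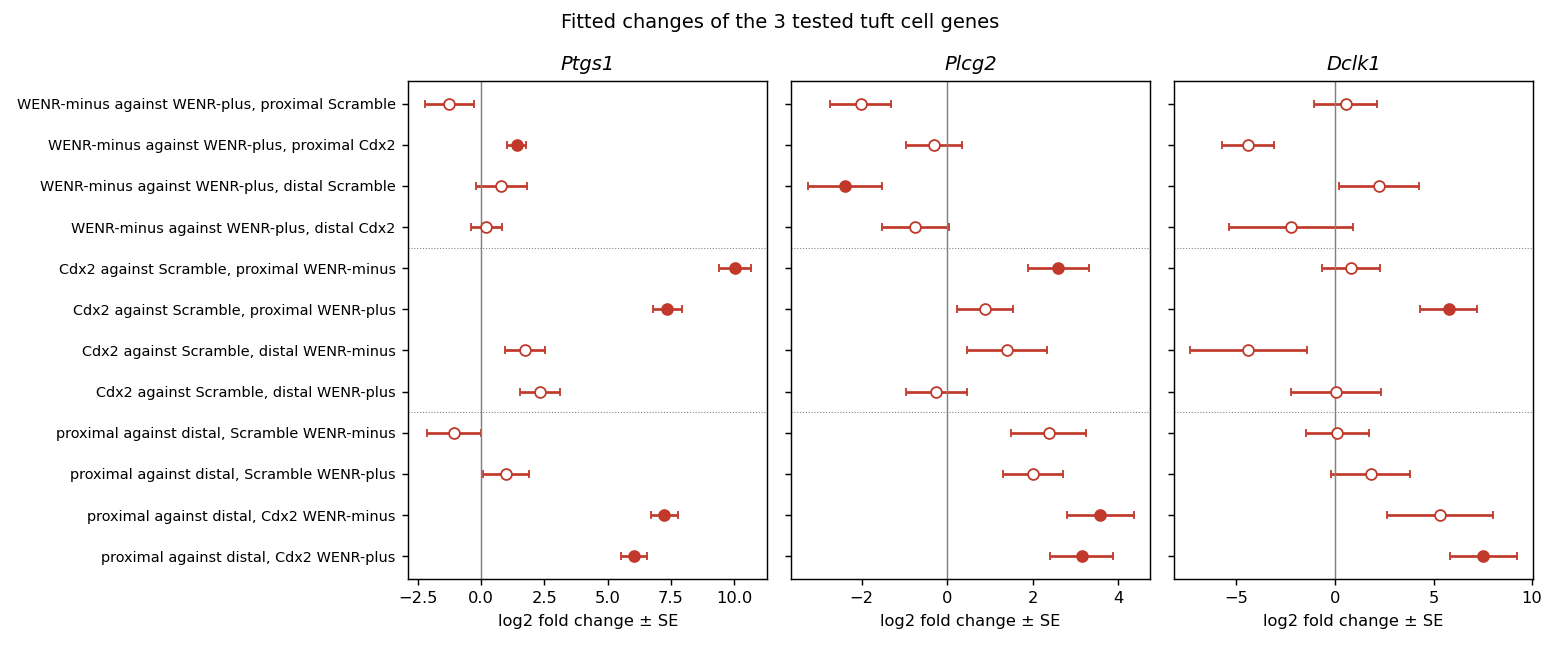
Fitted log2 fold changes with standard errors of Ptgs1, Plcg2 and Dclk1 in the 4 medium, 4 guide and 4 region comparisons; filled points were called and open points were not, and the horizontal scales differ between genes. The fitted values of a gene with both groups near 0 reads, as for Dclk1 in distal organoids, have wide errors.

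The region comparison set proximal against distal organoids. With Scramble-sgRNA no member was called, beside 6.08% of all genes in WENR-minus and 1.75% in WENR-plus. Plcg2 differed there by 2.38 on the log2 scale without the niche factors (SE 0.87, edgeR adjusted p = 0.111), which was 5.34-fold by summed reads (counting interval 2.53 to 13). With the factors it differed by 2.01 (SE 0.70, adjusted p = 0.206), or 3.97-fold (3.00 to 5.32). In WENR-minus it was called with the replicate number as a block (2.49, adjusted p = 0.0459), by DESeq2 (adjusted p = 0.0476) and without the filter on low counts, which also called it in WENR-plus. Leaving out distal libraries moved the uncalled values most, to 3.40 and 1.77 without replicate 1 and replicate 2 in WENR-minus (adjusted p = 0.176 and 0.408) and to 3.56 and 1.31 in WENR-plus (adjusted p = 0.103 and 0.575).

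With Cdx2-sgRNA, 2 members were called in WENR-minus, beside 34.6% of all genes, and 3 in WENR-plus, beside 17.0%. Ptgs1 was higher in proximal organoids by 7.23 in WENR-minus (SE 0.53, edgeR adjusted p = 2.13e-06). Its difference in WENR-plus was 6.03 (SE 0.50, adjusted p = 1.52e-05). Plcg2 was higher by 3.59 without the niche factors (SE 0.78, adjusted p = 0.00305). Over the alternatives this difference ranged from 2.80 to 5.23, with the distal WENR-minus pair at 1.35 and 0.251 CPM. With the factors Plcg2 was higher by 3.15 (SE 0.73, adjusted p = 0.00876). Dclk1 in WENR-plus was higher by 7.53 (SE 1.68, adjusted p = 0.00840), on 239 reads against 1, a ratio of 240 with a counting interval of 42.7 to 9530. In WENR-plus, leaving out either distal library ended the call of Plcg2 (adjusted p = 0.0582 and 0.0570), and leaving out distal replicate 1 or proximal replicate 2 ended that of Dclk1 (adjusted p = 0.0681 and 0.0540).

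Other cell type markers moved with these genes. The 12 leukocyte markers summed to 7.95 to 40.3 TPM in the proximal Cdx2-sgRNA libraries and to 0.561 to 6.28 TPM in the other 12, carried by Csf1r with 35 to 261 reads there and by Cd68. Of the 3 leukocyte markers tested against proximal Scramble-sgRNA, edgeR called Csf1r and Cd68 higher and Itgam lower in WENR-minus, beside 21.2% of all genes. In WENR-plus it called Csf1r higher and Itgam lower, beside 15.9% of all genes. Csf1r had at most 13 reads in any library outside the proximal Cdx2-sgRNA groups. It was thus kept for testing by the group in which it was high, so its calls are a description. Itgam had 1 to 9 reads in the proximal Cdx2-sgRNA libraries and 37 to 114 in the proximal Scramble-sgRNA libraries, and Laptm5 had 0 reads in the former. The general leukocyte marker Ptprc had 12 and 5 reads in proximal Cdx2-sgRNA WENR-minus and 1 and 0 in proximal Cdx2-sgRNA WENR-plus. It had 0 and 0 in proximal Scramble-sgRNA WENR-minus and at most 5 in any other library. Fcer1g had at most 1 read in any library, and Tyrobp and Cpa3 had 0 throughout. The 7 erythroid and megakaryocyte markers summed to 3.17 to 23.7 TPM against 0.350 to 4.02 TPM, carried by Pf4 and Itga2b, with Gata1 and Hbb-bs at 0. Several tuft cell genes are also used by blood cells, among them Ptgs1, Plcg2, Alox5 and Gfi1b, and the part of these markers in the result was not tested. The 7 fibroblast markers summed to 0.0683 to 0.203 TPM in the proximal Cdx2-sgRNA libraries against 0.555 to 2.21 TPM, a sum led by Pdgfrb with 1 to 2 reads against 29 to 138. Col1a1 went the other way, with 2 to 7 reads against 0 to 1, and Dcn and Lum had 0 reads throughout. The 6 neuron markers summed to 0.156 to 3.79 TPM in the proximal Cdx2-sgRNA libraries against 1.86 to 7.06 TPM, and the 2 lowest sums were the replicate 2 libraries. Of the 5 tested, edgeR called Elavl3, Elavl4 and Tubb3 lower with Cdx2-sgRNA in proximal WENR-plus, beside 15.9% of all genes. In proximal WENR-minus the adjusted p of Elavl3, Elavl4 and Tubb3 were 0.22, 0.051 and 0.11, beside 21.2% of all genes called. Snap25 held most of the neuron marker reads.

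The tested genes whose log2 CPM followed each member most closely over the 16 libraries were Ptpn13 (Pearson r = 0.990), Arl4c (0.981) and Wnt10a (0.980) for Ptgs1. For Plcg2 they were Shank2 (0.921), Dtnb (0.915) and 5730480H06Rik (0.907), and for Dclk1 Srrm4 (0.937), Clec12a (0.920) and Hprt (0.912). Among the members themselves r was 0.684 between Ptgs1 and Plcg2, 0.651 between Ptgs1 and Dclk1 and 0.535 between Plcg2 and Dclk1. These are descriptions over libraries that share cultures.

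A wider list of 47 further tuft cell genes varied widely in level. In all, 6 had 0 reads in every library, among them the tuft regulator Hmx3, the taste transduction subunit Gnb3 and Chat, which makes acetylcholine, and 19 others never exceeded 10 reads. Gnat3, the taste G protein, had at most 2 reads and Gng13 at most 2. The 21 that passed the filter included 10 with more than 100 reads in every library, such as Cd24a, Krt18, Sox4 and Itpr3, which epithelial cells express widely.

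Of these 21 tested genes, Cdx2-sgRNA raised 4 and lowered 1 in proximal WENR-minus, 23.8% called beside 21.2% of all genes (median log2 fold change 0.01, against 0.00 over all genes). In proximal WENR-plus it raised 4 and lowered 4, 38.1% beside 15.9% of all genes (median 0.27, against -0.05). In distal organoids 1 rose in WENR-minus, 4.76% beside 5.25% of all genes, and 0 were called in WENR-plus, beside 0.262%. Apart from proximal WENR-plus the shares were near those of all genes. Hpgds, the haematopoietic prostaglandin D synthase that tuft cells share, had 22 and 60 reads in proximal Scramble-sgRNA WENR-minus and 0 and 1 in proximal Cdx2-sgRNA WENR-minus, 75.2-fold lower (counting interval 13.1 to 3004, edgeR adjusted p = 0.000557). It fell by 3.72 in proximal WENR-plus (SE 0.74, adjusted p = 0.00442). This is the opposite direction to Ptgs1, and the proximal minus distal difference of its Cdx2-sgRNA effect was called in both media (-7.05 and -4.51, adjusted p = 0.00152 and 0.0189).

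Alox5ap, the partner protein of 5-lipoxygenase, had 3 and 60 reads in the proximal Cdx2-sgRNA libraries without niche factors, 26 and 314 in those with them, and 0 to 2 in each of the other 12 libraries. Replicate 2 carried most reads in both media. Like Ptgs1 and Dclk1, it was kept for testing by the group in which it was high, so the values that follow are a description. Against the 0 reads of proximal Scramble-sgRNA WENR-minus it was at least 11.5-fold higher (edgeR adjusted p = 0.0358), and against the 2 reads of proximal Scramble-sgRNA WENR-plus 178-fold higher (counting interval 48.9 to 1475, adjusted p = 0.0186). Its partner Alox5 had 0 reads in the 4 proximal Cdx2-sgRNA libraries.

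Il17rb, the receptor subunit for Il25, was at 4.95 ± 0.563 CPM in proximal Cdx2-sgRNA WENR-minus against 1.27 ± 0.395 with Scramble-sgRNA, and at 8.02 ± 0.797 against 1.41 ± 0.573 in WENR-plus. The rise was 1.96 on the log2 scale without the niche factors (SE 0.50, edgeR adjusted p = 0.0127). It was 2.49 with them (SE 0.50, adjusted p = 0.00480). It also rose in distal WENR-minus, by 2.58 (SE 0.54, adjusted p = 0.0156), the 1 gene of the list called in distal organoids. Runx1, a transcription factor of blood and hair follicle, rose in proximal organoids by 1.42 in WENR-minus (SE 0.15, adjusted p = 5.89e-05). Its rise in WENR-plus was 1.80 (SE 0.15, adjusted p = 1.92e-05). Pla2g4a, which frees arachidonic acid from membranes, fell by 1.34 (SE 0.23, adjusted p = 0.00197) and Tuba1a, a tubulin, by 1.66 (SE 0.53, adjusted p = 0.0402) in proximal WENR-plus.

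Between regions none of the 21 was called with Scramble-sgRNA. With Cdx2-sgRNA in WENR-minus 2 were higher and 4 lower in proximal organoids, 28.6% called beside 34.6% of all genes. Lrmp, a membrane protein of tuft cells and lymphocytes, had 0 reads in both proximal libraries and 80 and 11 in the distal pair, 80 of the 91 in 1 library. It was kept for testing by the distal libraries, in which it was high, so its lower call is a description. Espn, the actin bundler espin of the brush border, differed by -5.61 (SE 1.38, adjusted p = 0.00611), and Il4ra, the receptor for the cytokines to which tuft cells respond, by 1.32 (SE 0.14, adjusted p = 2.47e-05). In WENR-plus 3 were higher (Alox5ap, Il17rb and Il4ra) and 1, Hpgds, was lower, 19% beside 17.0% of all genes. The Cdx2-sgRNA effect also differed between regions in WENR-plus for Il4ra (1.29, adjusted p = 0.00286) and Runx1 (1.12, adjusted p = 0.0113).

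Withdrawal of the niche factors changed 2 genes of the list upward and 2 downward in proximal Scramble-sgRNA, 3 and 3 in distal Scramble-sgRNA, 3 and 1 in distal Cdx2-sgRNA, and 1 upward in proximal Cdx2-sgRNA organoids. The shares called were 19%, 28.6%, 19% and 4.76% of the 21, beside 17.0%, 26.4%, 33.1% and 6.40% of all genes, so none stood far above the background. Sox4, a factor of progenitor cells, fell in proximal Scramble-sgRNA by 1.52 (SE 0.28, edgeR adjusted p = 0.00243). Its fall in distal Scramble-sgRNA, where it fell by 1.36, had an SE of 0.28 (adjusted p = 0.00251), and Pla2g4a fell by 1.32 (SE 0.23) and 1.40 (SE 0.23). Cd24a fell by 1.75 (SE 0.51, adjusted p = 0.0182) and Ly6g6d rose by 1.24 (SE 0.38, adjusted p = 0.0237) in distal Scramble-sgRNA. Hpgds rose by 1.65 (SE 0.59, adjusted p = 0.0438) in distal Scramble-sgRNA and by 2.02 (SE 0.58, adjusted p = 0.0137) in distal Cdx2-sgRNA, where Il17rb rose by 1.60 (SE 0.50, adjusted p = 0.0209). In proximal organoids the medium effect differed by guide for Sox4 (2.09, adjusted p = 0.0213), Pla2g4a (1.33, adjusted p = 0.0440) and Il13ra1, a receptor subunit for type 2 cytokines (-1.85, adjusted p = 0.0259).

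**Figure D5:**
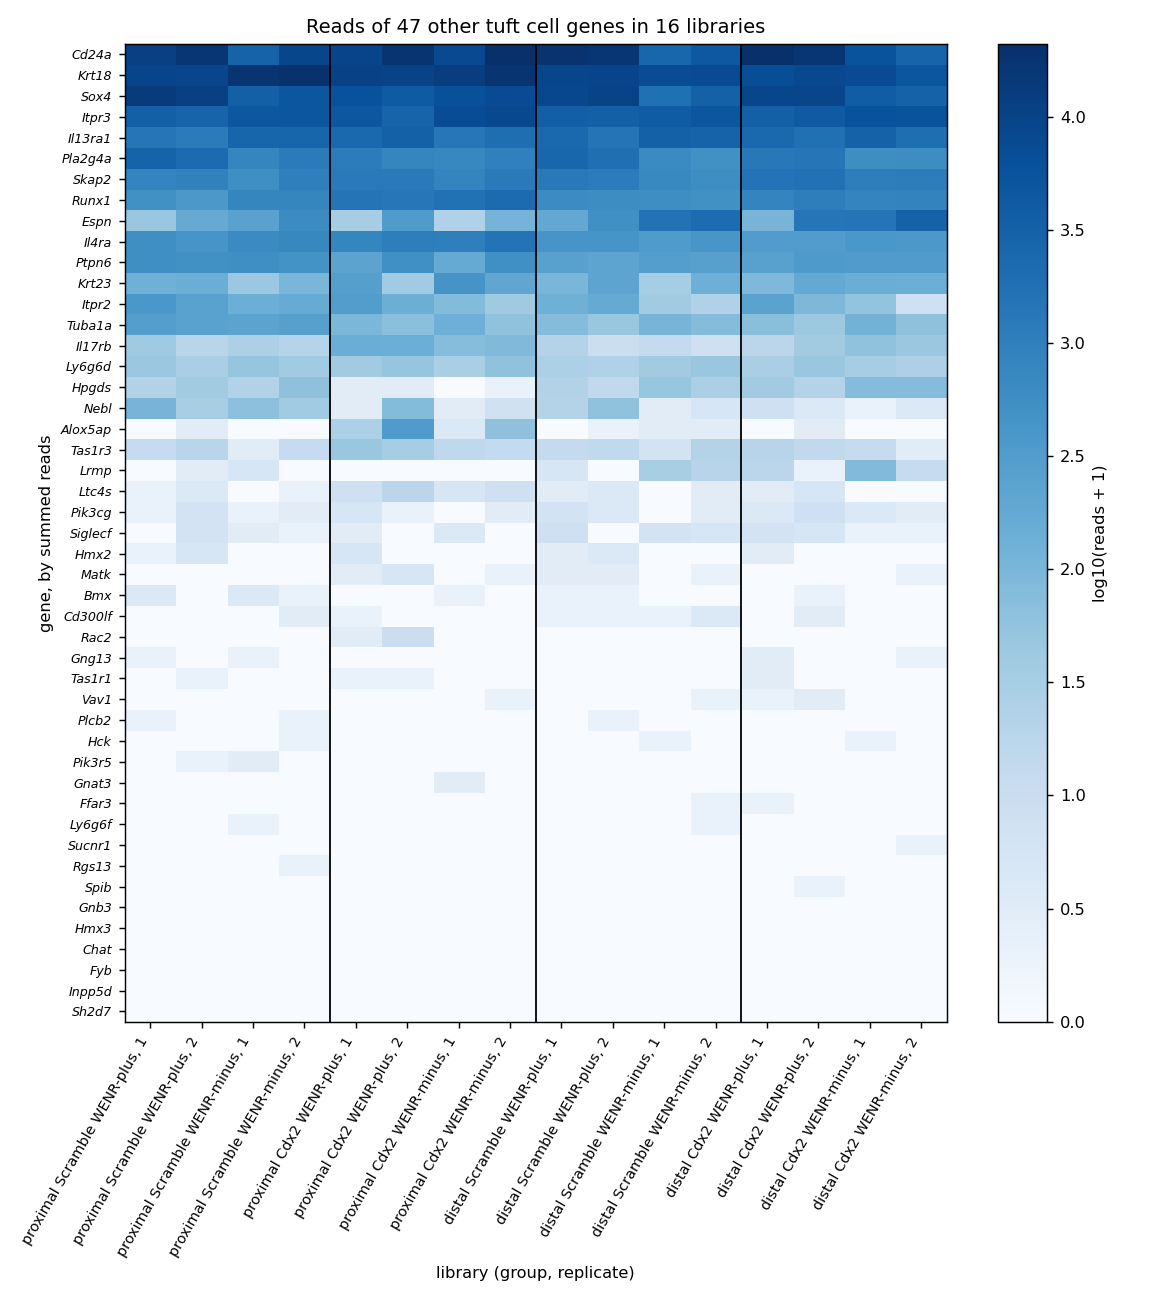
Reads of 47 other tuft cell genes (rows, ordered by summed reads) in each of 16 libraries (columns), coloured by log10(reads + 1). Of the 47 genes, 6 are at 0 in every library and 19 others stay at or below 10 reads; Alox5ap exceeds 2 reads only in the proximal Cdx2-sgRNA columns, where Hpgds is close to 0.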

How the data were processed

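RNA of colon organoids was sequenced in 16 libraries, 2 for each of 8 groups. The authors deposited, per library, Salmon 1.1.0 estimated counts (expected counts) and TPM for each transcript of GENCODE vM23, from paired reads of a stranded total RNA kit; both units are per the file headers. Salmon divides reads between overlapping transcripts, so counts per transcript are estimates. Transcripts were matched by identifier to GENCODE vM21 (139864 of 140748; the 884 others held 0.257 to 0.510% of counts), summed to 54123 genes and rounded. Gene symbols and positions are those of vM21 on GRCm38.

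Genes were tested with edgeR 4.0.16 in R 4.3.3: filterByExpr, TMM factors, 1 coefficient per group over all 16 libraries (8 residual degrees of freedom), quasi-likelihood tests of 17 contrasts, prior count 0.125, and Benjamini-Hochberg adjustment over 15289 genes. The procedure was tested on simulated data. Ratios of summed reads carry exact 95% binomial intervals, which cover counting error only, since reads without molecular identifiers are not independent molecules. Total counts of 12465194 to 18922143, of which 15.4 to 28.0% were mitochondrial rRNA, set the precision. Replicates of a group came from independent mice and differed well beyond counting noise (chi-square of 28.0 to 56.0 per degree of freedom over genes).

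The 2 media of a culture deviated together from their group means (r = 0.281 to 0.589), and blocked fits of Ptgs1, Plcg2 and Dclk1 are given beside results whose call they changed. No blocked fit or other alternative was run for genes of the wider lists. The 10 genes, the gene lists and the tests were chosen with earlier results of these data known. Named genes are the 10 members, up to 6 called genes of the wider list with the largest changes per kind of comparison, and the 3 genes most correlated with each tested member. Also named are Cdx2, markers of other cell types, genes of the wider list given by their reads, and genes of the prostaglandin list. Alternatives were RLE factors, no filter, a filter of 10 counts in every library, DESeq2 1.42.0, replicate and culture blocks, only the 4 libraries compared, length-scaled counts, protein-coding transcripts only, no fold change threshold, and leaving out each library.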

Additional observations from a re-analysis of the deposited data

Results flagged for a closer look

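Ptgs1 stood out because the difference in its Cdx2-sgRNA response between the regions passed edgeR's threshold. It was kept for testing by its proximal Cdx2-sgRNA libraries, so the values are a description and no support of their own. In WENR-minus the proximal effect exceeded the distal effect by 8.29 on the log2 scale (SE 1.39, adjusted p = 0.00269). In WENR-plus it did so by 5.04 (SE 1.30, adjusted p = 0.0452), a call lost when any of 6 of its 8 libraries was left out. With protein-coding transcripts only, neither was called (adjusted p = 0.9999 in each medium). All 4 proximal Cdx2-sgRNA libraries were above all 12 others. No group had the 4 libraries needed to test for an outlying sample.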

How the results depend on the processing

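Of 31 log2 fold changes of Ptgs1, Plcg2 and Dclk1, refitted 381 times, 325 kept direction and side of the threshold, 29 lost the call, 19 gained it and 8 turned direction. The calls of Ptgs1 between guides in proximal organoids and between regions with Cdx2-sgRNA lost none of them. Groups held 2 libraries, and where one was left out the lone library was assumed to vary like the other groups. Low counts limit the 7 untested genes. Causes were not tested unless stated.

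Counts of called members changed as follows. Without the filter on low counts they were 1 for the medium in proximal Scramble-sgRNA, 3 for the medium in proximal Cdx2-sgRNA, 4 for Cdx2-sgRNA in proximal WENR-minus, 1 for Cdx2-sgRNA in distal WENR-plus, 1 for region in each medium with Scramble-sgRNA, 4 for region with Cdx2-sgRNA in WENR-minus, 2 for the regional difference of the Cdx2-sgRNA effect in WENR-minus and 2 for the guide difference of the medium effect in proximal organoids. With 10 counts required in every library no member could be tested, and each count was 0. DESeq2 gave 1 and 2 for the medium in proximal Scramble-sgRNA and Cdx2-sgRNA, and 1 for region with Scramble-sgRNA in WENR-minus. The replicate block gave 1 (Plcg2) for the medium in proximal Scramble-sgRNA and 1 (Plcg2) for region with Scramble-sgRNA in WENR-minus, and changed no other of the counts. The culture block gave 1 and 2 for the medium in proximal Scramble-sgRNA and Cdx2-sgRNA and 2 for their difference. Only the 4 libraries compared gave 1, 0 and 0 for the medium in proximal Scramble-sgRNA, proximal Cdx2-sgRNA and distal Scramble-sgRNA; differences were not run this way. RLE factors gave 0 for the medium in distal Scramble-sgRNA. Length-scaled counts gave 0 for the medium in proximal Cdx2-sgRNA and distal Scramble-sgRNA and 1 for Cdx2-sgRNA in proximal WENR-plus. Protein-coding transcripts gave 1 for the medium in proximal Scramble-sgRNA and 0 for both regional differences of the Cdx2-sgRNA effect, where Ptgs1 had 0 such reads in all Scramble-sgRNA libraries and the fitted difference had an unusably wide error.

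With each library left out in turn, counts ranged from 0 to 2 for the medium in proximal Cdx2-sgRNA (2, with Dclk1, without WENR-plus replicate 1), 0 to 1 in distal Scramble-sgRNA, 1 to 3 for Cdx2-sgRNA in proximal WENR-minus (3 without either Cdx2-sgRNA library, when Avil and, without replicate 1, Pou2f3 passed the filter), 1 to 2 for Cdx2-sgRNA in proximal WENR-plus, 1 to 3 for region with Cdx2-sgRNA in WENR-plus and 0 to 1 for the regional difference in WENR-plus. Single log2 fold changes, none of them called, that turned direction were those of Plcg2 for the medium in proximal Cdx2-sgRNA (-0.74 to 0.32, turned without WENR-plus replicate 1) and distal Cdx2-sgRNA (-2.39 to 0.059, WENR-minus replicate 2), for Cdx2-sgRNA in distal WENR-plus (-0.93 to 1.31, Scramble-sgRNA replicate 1) and for its regional difference in WENR-plus (-0.40 to 1.85, the same library), and those of Ptgs1 for the medium in distal Cdx2-sgRNA (-0.31 to 0.89, WENR-plus replicate 1 or WENR-minus replicate 2, and -0.84 with protein-coding transcripts) and for the guide difference of the medium effect in distal organoids (-1.45 to 0.023, Cdx2-sgRNA WENR-plus replicate 2).

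Across 28 pairs of groups the deviations of same-numbered replicates had r of -0.059 to 0.589, and 9 were over 0.1. The median log2 fold change of all genes was -0.11 for the medium in distal Scramble-sgRNA (-0.04 under RLE factors) and 0.13 for region with Cdx2-sgRNA in WENR-minus.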

Other observations

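A list of 21 genes of the prostaglandin pathway was written after the values of Ptgs1 had been seen, so its values are a description with no test. Of these, 4 had 0 reads in every library (the receptors Ptger2, Ptgir and Tbxa2r, and the synthase Tbxas1). Ptgs2, the inducible cyclooxygenase, was at 72.6 ± 59.2 CPM (SD, n = 2 throughout) in proximal Cdx2-sgRNA WENR-minus and 1.04 ± 0.594 CPM with Scramble-sgRNA. In proximal WENR-plus it was at 12.7 ± 14.7 and 0.362 ± 0.242 CPM. Unlike Ptgs1 it was also high with Cdx2-sgRNA in distal organoids, at 44.8 ± 26.3 CPM against 1.39 ± 0.875 in WENR-minus and 9.13 ± 4.6 against 0.957 ± 0.928 in WENR-plus.

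Hpgd, which breaks prostaglandins down, was lower where Ptgs1 was high. It was at 24.5 ± 16.4 CPM in proximal Cdx2-sgRNA WENR-minus and 179 ± 34.8 with Scramble-sgRNA, and at 8.37 ± 3.09 and 64.6 ± 3.73 CPM in WENR-plus. In distal WENR-minus organoids the values were 292 ± 49.6 CPM with Cdx2-sgRNA and 112 ± 43.4 with Scramble-sgRNA. Ptger4, a receptor for prostaglandin E2, was at 5.06 ± 2.43 CPM against 28.9 ± 9.30 in proximal WENR-minus and 1.31 ± 0.438 against 10.3 ± 2.14 in WENR-plus, and its distal groups lay between 11.1 and 26.4 CPM.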
